A study of Mus musculus with 2 samples.

Results

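The regions described here are 2535 places in the mouse genome where SRCAP peaks lay in repeat-masked sequence far from genes' start sites, out of 15653 merged nuclear regions. They were found by pooling the peak positions of both replicates, merging overlapping peaks, leaving out mitochondrial peaks, and keeping merged regions with at least 50% of their bases soft-masked (written in lower case as repeat sequence in the assembly) and a midpoint over 2 kb from every annotated transcription start site (TSS). They are called masked distal regions below. The other regions served for comparison, 4670 distal regions that were under 50% masked and 8448 regions within 2 kb of a TSS. The rule used position and masking, and no score or replicate. Of the masked distal regions, 1077 were covered by a peak of replicate 1 and 2085 by a peak of replicate 2.

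SRCAP, an ATPase of chromatin, drives the complex that replaces histone H2A with the variant H2A.Z. Its position was mapped by CUT&Tag, in which an antibody against GFP brings a transposase to the tagged protein, with 200000 cells per sample and 37 nt paired-end reads per the labels (the study's methods give another read length). Both samples were of 1 group: SYAT cells, a line from 1 homozygous clone of CGR8 mouse embryonic stem cells, with YPet and an auxin-inducible degron (AID) on both alleles of Srcap and stable expression of the receptor OsTir1. They were grown with auxinole as the control condition, at 200 nM per the labels (the study's methods give the same figure in µM), and per the labels in serum and LIF for the last days before the experiment. The study's reporting form gives its replicates in general as independent cultures. Neither cells after auxin nor a control antibody was analysed here, so conditions were not compared. The peak lists hold no read numbers, so the depth was unknown. Replicate 1 had 6158 peaks and replicate 2 had 12958.

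Much of a mammalian genome consists of copies of transposable elements and of tandem repeats. LINE-1 elements are retrotransposons that are active in the mouse. At their 5′ end they carry a promoter made of repeated units called monomers. A first reading frame, for an RNA-binding protein, follows. A long second frame encodes the endonuclease and reverse transcriptase that copy the element. Tandem repeats include the satellites next to centromeres. Short reads from near-identical copies can be hard to place, so peaks are more easily called in repeats that have changed over time or at their edges.

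The sequences that masked distal regions shared are given first. A word here is a run of 30 bases found on either strand. Words were picked in turn, each time the word held by the most regions not yet accounted for, until a word would have added fewer than 30. This gave 10 words, which accounted for 1310 regions (51.7%), while 1225 regions held none. The first 8 and the word described next show what the regions have in common and how the groups differ, and capitals mark the letters AAGATGG, the reverse complement of CCATCTT, which is the core motif of the transcription factor YY1.
Word 1: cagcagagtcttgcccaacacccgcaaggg
Word 2: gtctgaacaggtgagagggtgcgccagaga
Word 3: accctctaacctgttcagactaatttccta
Word 4: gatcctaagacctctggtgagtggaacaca
Word 5: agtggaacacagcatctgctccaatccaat
Word 6: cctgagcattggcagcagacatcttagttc
Word 7: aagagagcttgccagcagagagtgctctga
Word 8: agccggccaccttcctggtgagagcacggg
Word with the YY1 motif: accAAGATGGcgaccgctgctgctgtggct

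Word 1 was held by 419 regions, word 2 by 355, word 3 by 220 and word 4 by 185. Some words were parts of the same sequence: 102 regions held words 1 and 4 together, and 349 held words 1 and 9. Words 2 and 3 shared a run of 12 letters on opposite strands, and words 4 and 5 a run of 11 letters. No region held both word 1 and word 2. The commonest word that held AAGATGG was in 324 regions, of which 296 belonged to word 2 and 0 to word 1. A region with several words is counted below under the first of them, and the words were chosen because many of the regions hold them, so that counts of regions per word describe the set and test nothing.

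Masked distal regions were found in both replicates more often than other distal regions. Of the 2535 regions, 627 were covered by peaks of both replicates (24.7%, 95% Wilson interval 23.1 to 26.5%), where 21.9% of all merged regions were. The share was 8.74% (7.96 to 9.58%) among distal regions under 50% masked, a difference of 16 percentage points (Newcombe interval 14.2 to 17.9), and 28.4% (27.4 to 29.4%) near a TSS. Masked distal regions thus stood below the regions near a TSS (a difference of -3.66 points, interval -5.57 to -1.70) and above the distal regions in unmasked sequence. Over the 808 masked distal regions with at least 50% of their 31-base stretches occurring once in the assembly, the share was 12%. Of the regions seen in replicate 1, 58.2% were also seen in replicate 2, and of those seen in replicate 2, 30.1% in replicate 1. All intervals of shares cover counting error only, and regions of the same libraries are not replicates.

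The share in both replicates differed between word groups. It was 36.3% (31.8 to 41.0%) of the 419 regions of word 1 and 39.7% (34.8 to 44.9%) of the 355 of word 2. It was 62.3% (49.7 to 73.4%) of the 61 regions of word 5 and 57.9% (42.2 to 72.1%) of the 38 of word 6. Words 3 and 4 stood at 26.1% and 24.1%, and the smallest groups, words 7 to 10, between 13.3% and 18.9%. Regions without a word were shared least among the large groups, at 14.2% (12.4 to 16.3%) of 1225. The intervals of words 5 and 6 did not overlap those of words 3 and 4 or of the regions without a word, whereas words 1 and 2 could not be told apart. The groups also differed in median width. It was 425 and 448 bp for words 1 and 2, 369 and 362 bp for words 3 and 4, and 521 and 455 bp for words 5 and 6. It was 282 to 384 bp for words 7 to 10 and 321 bp without a word. A region merged from both replicates can be wider and so hold a word more easily, and the part of width was not tested.

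**Figure D1:**
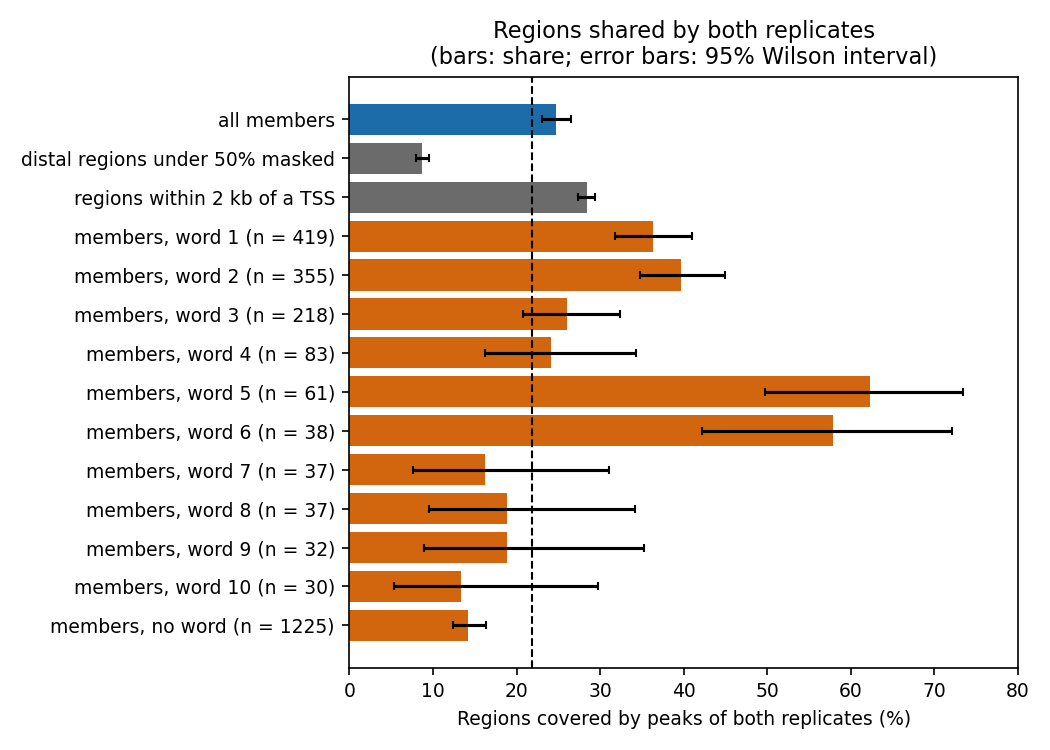
Share of regions covered by peaks of both replicates, in percent on the horizontal axis, for all masked distal regions ("members"), the other classes, and the masked distal regions by word. Error bars are 95% Wilson intervals, and the dashed line is the 21.9% of all merged regions. The bars of words 5 and 6 are the longest, at 62.3% and 57.9%, and that of distal regions under 50% masked, at 8.74%, is the shortest.

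The score of a peak was read as 10 times the −log10 of the peak caller's q-value, cut to a whole number, since 13, the lowest in the lists, corresponds to a q-value of 0.05. The median score of masked distal regions was 34 in replicate 1 (range 13 to 1540, n = 1077) and 36 in replicate 2 (13 to 2351, n = 2085). It was 23 and 27 for distal regions under 50% masked and 35 and 41 for regions near a TSS. Masked distal regions thus scored like regions near a TSS in replicate 1 and lower than these in replicate 2, and above the other distal regions in both. The scores depend on depth and are compared here only within a list.

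Among distal regions, the higher the score, the more often the region was masked. In replicate 1, masked regions made up 33.2% (30.8 to 35.7%) of the 1423 distal regions with a score under 30, and 46.3% (42.8 to 49.8%) of the 782 from 30 to 49. They made up 61.3% (55.7 to 66.6%) of the 302 from 50 to 99, and 57 of the 71 with a score of 100 or more (80.3%, 69.6 to 87.9%). In replicate 2 the shares of the same bins were 27.6%, 37.1%, 54.5% and 75.4%, the last from 150 of 199 regions. Of the 100 nuclear regions with the highest scores, 31 were masked distal regions in replicate 1, against 65 near a TSS and 4 in other distal sequence. In replicate 2, 47 were masked distal regions, 47 lay near a TSS and 6 were in other distal sequence. Over all scores, 35.2% (34.1 to 36.3%) of 7205 distal regions were masked, where 30.8% of all 300-base windows of the distal genome were masked by the same rule.

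In the 627 regions found in both replicates, the scores of the replicates were related across regions, with a Spearman rho of 0.482. This describes regions that share the same libraries. The same value was 0.363 over 408 other distal regions and 0.405 over 2399 regions near a TSS. Limited to the 97 shared regions whose 31-mers mostly occurred once in the assembly (at least 50%), it was 0.276.

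**Figure D2:**
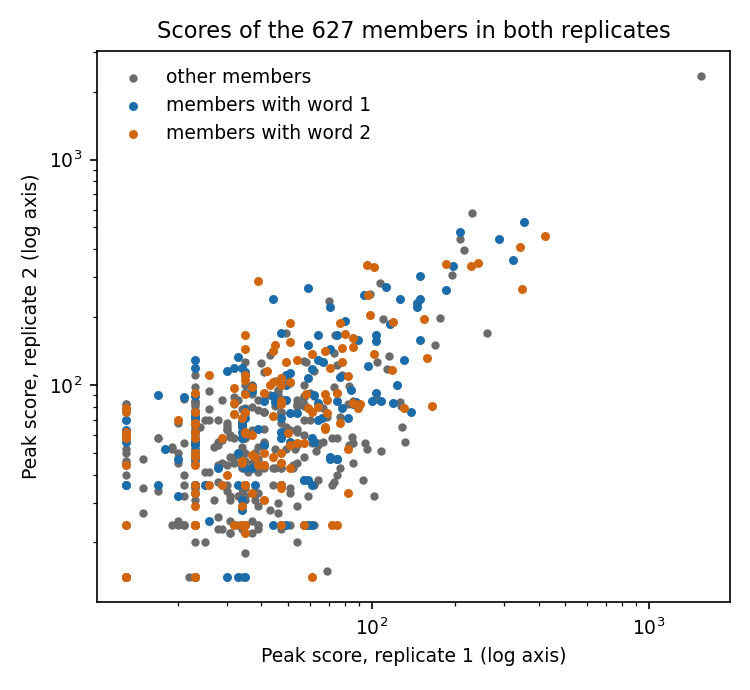
Peak scores of the 627 masked distal regions found in both replicates, replicate 1 on the horizontal and replicate 2 on the vertical axis, both logarithmic, with regions of words 1 and 2 in colour. The scores rise together, with a Spearman rho of 0.482, and a point at 1540 and 2351 stands far above all others.

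The region with the best rank in both lists lay at chr9:35305222-35305589 (mm10), with a score of 1540 in replicate 1 and 2351 in replicate 2. It was in an intron of Gm33838, 2193 bp from the TSS of that gene and so close to the limit of the rule. The central 200 bases are shown because this region ranked at place 3 of the list of replicate 1 and at place 2 of that of replicate 2, and they hold the mouse major satellite, the tandem repeat of the heterochromatin beside centromeres. Its bases at chr9:35305306-35305505, plus strand, were:
Major satellite: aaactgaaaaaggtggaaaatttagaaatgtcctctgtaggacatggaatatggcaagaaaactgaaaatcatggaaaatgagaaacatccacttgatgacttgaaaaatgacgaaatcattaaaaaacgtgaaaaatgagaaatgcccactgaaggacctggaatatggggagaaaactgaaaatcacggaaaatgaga

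The GC content around its midpoint was 36.7%, against a median of 59.3% for all masked distal regions. The median 31-mer of this region occurred 1.5 times in the assembly. Assemblies hold few of the satellite's copies, and how many the cells carry was not tested here. The study's methods exclude blacklisted regions, and whether this was done for these lists is not known.

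Of the next 9 shared regions, 4 held word 2, 3 held word 1, 1 held word 7, and 1 held no word. The highest with word 1 was chr8:33151275-33151905, an intergenic region with scores of 355 and 526. The highest with word 2 was chr1:143862212-143862531, with scores of 422 and 459, 67655 bp from the nearest TSS, of Uchl5. These were followed by a word 1 region in an intron of Cep128 at chr12:91164142-91165008 (289 and 445) and a word 2 region at chrX:110416984-110418046 (343 and 410). All 7 regions of words 1 and 2 in this list were 100% masked, and each had under 15% of its 31-mers once in the assembly, the highest being 13.8%.

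The highest regions found in a single replicate were of several kinds. In replicate 1 they scored 89, 77 and 77, the first in an intron of Cyp2c66 with word 6. In replicate 2 they scored 408, 314 and 220, the first in an intron of Thsd7a with word 1, the next in an intron of Ppp1r9a with no word. The highest region of replicate 2 alone, at chr6:12671761-12672180, ranked at place 21 of that list, so a high score in 1 library did not always come with a peak in the other.

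The regions' lengths had a median of 357 bp (235 to 4371), against 313 bp for other distal regions, and 53 were 1000 bp or longer. The median masked share was 96.4%, and 1039 regions (41.0%) were masked over their full length. At the limits of the rule, the region just inside the masked share had 50.0% masked bases, a replicate 1 score of 23 and lay at chr17:33008536-33008777, and the one just outside had 49.9%, a replicate 2 score of 27, and lay in an intron of Kdelc2. The region just inside the distance was 2056 bp from the TSS of the olfactory receptor gene Olfr1238, with a replicate 1 score of 23, and the one just outside was 1993 bp from that of Ftl1-ps2, with scores of 37 and 25.

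Masked distal regions were rich in G, C and CpG for repeat sequence. In the central 300 bases, the median GC content was 59.3%, against 40.7% in all masked distal windows of that length, 51.3% in other distal regions and 62.3% near a TSS. The median number of CpGs was 12, against 2, 5 and 20. The median GC content was 62.7% with 17 CpGs for word 1, 64.7% with 18 for word 2, and highest for the 37 regions of word 8, at 67% with 22. Regions without a word had 48.3% and 3 CpGs, below other distal regions in both.

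Many of these regions, though not all, were made of sequence with many copies. The copy number of each 31-base stretch in the assembly was counted. A median of 26.0% of a masked distal region's 31-mers occurred once, against 100% in both other classes. The rule picked these regions for repeat sequence, which partly sets this contrast, and masked windows in general were not counted. The median copy number within a region had a median of 15 over regions and reached 11717. It was 2230 for word 1 and 1855 for word 2, and 24 for word 4. It was 2 for word 5 and 3 for word 6, with 42.6% and 40.7% of 31-mers occurring once. In the 1225 regions without a word it was 1, and 59.3% of 31-mers occurred once. A total of 231 regions had no 31-mer that occurred once. The study's methods keep reads with 1 alignment, under a heading for ChIP-seq and CUT&Tag together, and how the reads of these regions were placed was not tested. Fragments are longer than 31 bases, so a region without such a 31-mer can still hold a pair of reads with 1 place.

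The share found in both replicates was lowest in the most unique sequence. It was 34.4% (31.2 to 37.8%) of the 796 regions with under 10% of 31-mers occurring once, and 26.9% and 28.1% of those from 10 to 25% and from 25 to 50%. It was 16.7% (13.6 to 20.5%) from 50 to 75%, and 6.11% (4.07 to 9.08%) of the 360 regions at 75% or more. That last share overlapped the 8.74% of distal regions under 50% masked. The median scores fell in the same order, from 35 and 45 to 23 and 25 in replicates 1 and 2. Among the 231 regions with no such 31-mer, 22.5% were in both.

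Most masked distal regions were related to each other in sequence. With alignments of at least 100 bases and 80% identity that covered 50% of the shorter region, 2219 regions (87.5%) fell into 27 families, and 316 stood alone. Masked windows in general were not aligned in this way, so how far this sets the regions apart was not tested. The largest family joined 2101 regions in a chain of alignments. It held words 1 to 10, and also 793 regions without a word. The next had 30, 9, 8 and 6 regions, and the highest regions of the last 3 of these were in replicate 2 only, with scores of 44, 47 and 63. The family of 30 led with a region of 1420 bp at chr16:30717540-30718959 (scores 208 and 444). It held a run of the 5-base unit ACAGC, and the stretch at chr16:30718840-30718959 is shown because 8 of the 18 regions with this unit were in both replicates. Capitals mark the longest perfect run, of 84 bases, on the plus strand:
ACAGC unit: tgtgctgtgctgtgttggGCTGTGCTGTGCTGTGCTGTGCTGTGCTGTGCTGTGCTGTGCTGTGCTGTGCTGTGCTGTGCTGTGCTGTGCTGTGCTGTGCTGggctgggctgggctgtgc

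Runs of short units were less common among masked distal regions than in masked sequence in general. A perfect run of at least 24 bases with a unit of 1 to 6 bases was in the central 300 bases of 97 regions (3.83%, 3.15 to 4.65%), against 11.3% of masked distal windows and 3.62% of other distal regions. The commonest units were AC with 25 regions, ACAGC with 18 and AG with 14. None of the 25 regions with AC and 1 of the 14 with AG was in both replicates.

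Sequence at and around the regions of several words had a common unit length, as repeats built of monomers have. The 2000 bases around each region's midpoint were compared with themselves at shifts of 100 to 400 bases. Matches below thus include sequence beside the region. The best shift was 208 bases in 311 of the 419 regions of word 1 (74.2%), 212 bases in 321 of the 355 of word 2 (90.4%) and 214 bases in 206 of the 218 of word 3 (94.5%). In the smaller groups, it was 214 bases in 86.7% of word 10 regions, 212 bases in 59.5% of word 7 regions and 204 bases in 56.8% of word 8 regions. A median of 38.1%, 40.3% and 36.5% of bases matched at these shifts. For words 4 and 9 it was 199 bases in 44.6% and 208 bases in 46.9% of regions, with a median match of 38.8% and 51.1%. At the shifts of words 1, 2 and 3 a median of 50.5%, 46% and 38.9% of bases matched, and at most 98.7%, 90.1% and 69.7%. Regions of words 5 and 6 had their best shift at 117 bases in 57.4% and 65.8%, with a median of 32.9% and 33.8% of bases matching and at most 36.4% and 36.6%. The typical match of word 3 regions was thus not far above theirs. Regions without a word had no common shift, as the commonest, 201 bases, was found in 3.18%, with a median match of 33.6%.

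Many of the masked distal regions lay near a long open reading frame. A whole ATG-to-stop frame of at least 1000 codons lay within 8 kb of the midpoint of 660 regions (26.0%, 24.4 to 27.8%). It did so for 78 of 4670 other distal regions (1.67%, 1.34 to 2.08%). These classes were split by masking, and frames near masked windows in general were not counted, so this contrast cannot be set apart from the rule. Because the whole frame had to fit, a midpoint could lie farther past the start of a frame than before it. In 642 of the 660 the frame encoded the motif FADD, the catalytic motif of LINE-1 reverse transcriptase, and in 524 it had 1281 codons, the commonest length. The regions lay on the same side of it: 640 of the 660 midpoints (97%) were upstream of the frame's start, at a median of -1798 bp with quartiles of -2002 and -1660. Of the other distal regions with a frame, 41 of 78 (52.6%) were upstream. Of word 2 regions 74.4% had such a frame, of word 1 regions 53.2%, of word 7 regions 64.9%, of word 3 regions 19.3%, and of word 4 regions 12.0%. For words 1, 2, 3 and 8, whose holders were all or nearly all counted under that word, all loci in the assembly, with or without a peak, can be set beside the regions. Of these loci 48.8%, 73.5%, 29.9% and 58.2% had a frame, against 53.2%, 74.4%, 19.3% and 37.8% of the regions. None of the 61 word 5 regions and 1 of the 38 word 6 regions had one.

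**Figure D3:**
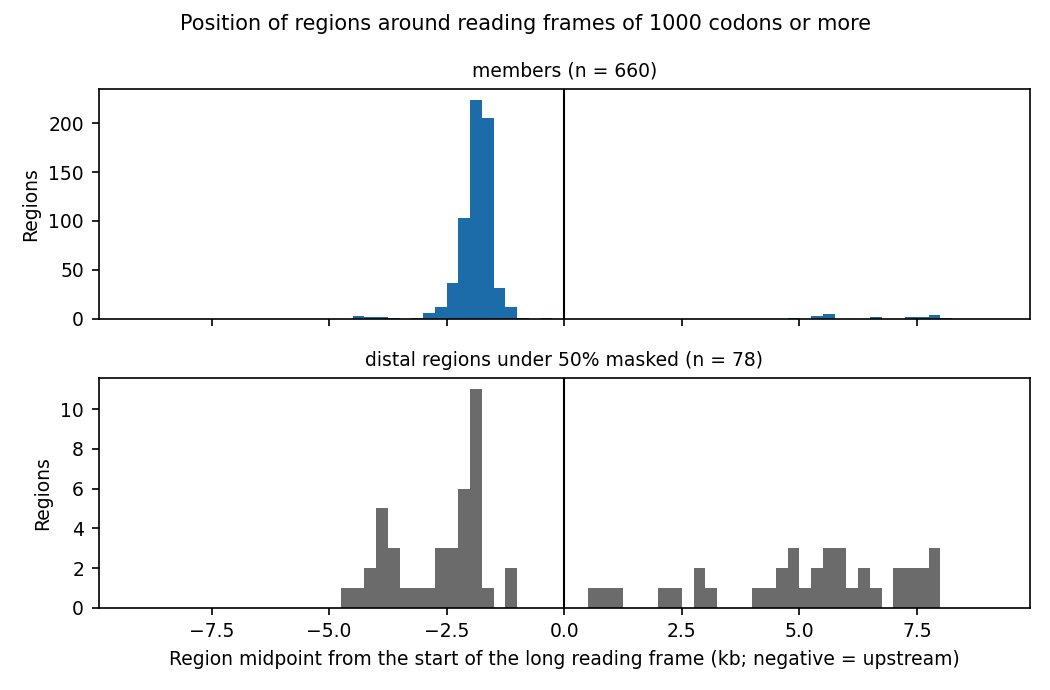
Number of regions by distance of their midpoint from the start of the long reading frame, in kb. The 660 masked distal regions ("members", top) and 78 other distal regions (bottom) with a whole frame within 8 kb of the midpoint are shown. Negative distances are upstream. Masked distal regions form a narrow peak around a median of -1798 bp, and the other regions are spread over both sides.

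All such frames of the assembly were then examined. There were 5559 frames of at least 1000 codons, of which 4130 encoded FADD and 3120 of these had 1281 codons. In the 5 kb upstream of the 4130 frames, 338 had a peak region of replicate 1 (8.18%, 7.39 to 9.06%), 582 of replicate 2 (14.1%, 13.1 to 15.2%) and 229 of both (5.54%, 4.89 to 6.28%). In the 5 kb downstream the counts were 19 (0.460%), 39 (0.944%) and 9 (0.218%). The upstream side thus held the regions in both replicates, with intervals far from those downstream. Of the 697 regions upstream, 631 were masked distal regions, and of the 49 downstream, 19. Inside the frames there were 0 regions, and there the median share of 31-mers that occurred once was 0%, against 16% in the 2500 bases upstream and 65% in the 2500 bases downstream. The part of unique sequence in these counts was not tested. Frames without FADD had few regions on either side: of 1429, 22 (1.54%) and 33 (2.31%) had one upstream in replicates 1 and 2, and 12 (0.840%) and 30 (2.10%) downstream.

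The frame that precedes the long one had a few common lengths, and regions were not spread evenly over them. A frame of at least 300 codons that ended within 200 bases of the long frame's start was present at 3262 of the 4130 frames (79.0%). It had 371 codons at 2057 of them, 357 at 755 and 385 at 264. Upstream of frames with 371 codons, 8.65% (7.51 to 9.95%) had a region of replicate 1 and 15.8% (14.3 to 17.5%) of replicate 2. For 357 codons, the shares were 12.3% (10.2 to 14.9%) and 17.7% (15.2 to 20.6%). For 385 codons, they were 1.89% (0.812 to 4.36%) and 4.55% (2.62 to 7.78%), below both others in each replicate with intervals that did not overlap. The lengths 371 and 357 differed in replicate 1 and overlapped in replicate 2. The 31-mers of the 2500 bases upstream were less often unique at 385 codons, with a median of 7.21% against 16% and 13.1%, and its part in the difference was not tested. Where a first frame was present, 591 regions lay upstream of the long frame. Of their midpoints 590 were also before the start of the first frame, and the median over all was -672 bp from it, with quartiles of -886 and -538.

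Most copies of the shared words had no SRCAP peak. Copies in the assembly were joined into a locus where they were within 1 kb of each other. Of the 2604 loci of word 1, 434 (16.7%, 15.3 to 18.1%) overlapped a masked distal region, and of the 2240 of word 2, 370 (16.5%, 15 to 18.1%). Word 6 had 117 loci, of which 58 overlapped one (49.6%, 40.7 to 58.5%), the largest share of the 10 words. Word 5 followed word 10 (24.1%, 21.2 to 27.2%, of 780 loci), with 74 of 350 (21.1%, 17.2 to 25.7%), and its interval overlapped that of word 10. Word 7 had the lowest share, at 1.85% (1.46 to 2.34%) of 3623 loci. Copies too alike for reads to be placed count here as loci without a peak.

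Loci with more copies of words 1 and 2 more often had a peak. For word 1, peaks of replicate 1 were at 3.44% (2.44 to 4.85%) of 900 loci with 1 copy and 23.1% (18.4 to 28.7%) of 255 loci with 5 or more. For replicate 2 these shares were 5.33% (4.05 to 7%) and 33.7% (28.2 to 39.7%). For word 2 they rose from 3.17% (2.10 to 4.75%) of 695 loci to 15.1% (11.2 to 20%) of 252 loci in replicate 1, and from 7.05% (5.37 to 9.20%) to 26.2% (21.1 to 31.9%) in replicate 2. In between, the rise was not even: word 1 loci with 3 and 4 copies had 12.5% and 11% in replicate 1, and their intervals overlapped. Word 8 went otherwise, with 0 of 59 loci at 5 or more copies in either replicate (upper bound 6.11%), and for word 3 the shares rose from 6.30% and 11.5% of 698 loci with 1 copy to 16.5% and 31.6% of 79 loci with 3, and were 2.78% and 8.33% of the 36 loci with 5 or more. A locus with more copies is also longer, and the part of length was not tested.

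**Figure D4:**
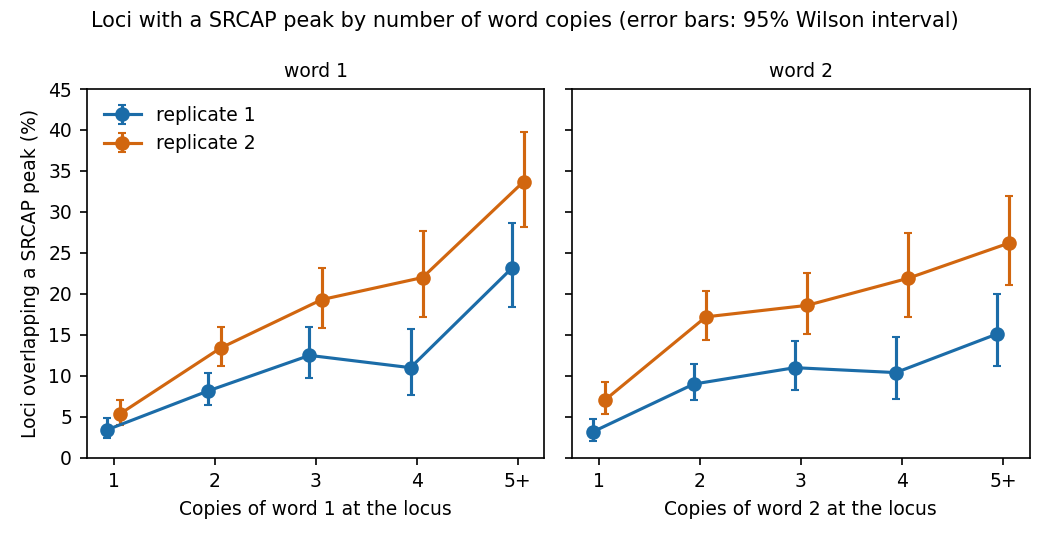
Share of loci that overlap a SRCAP peak, in percent on the vertical axis, by the number of copies of word 1 (left) and word 2 (right) at the locus, with 95% Wilson intervals. Both replicates rise from 1 copy, where at most 7.05% of loci have a peak, to 5 or more copies, where 15.1% to 33.7% do.

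Motifs of transcription factors were unequally spread over the word groups. Motifs were searched on both strands of the central 300 bases. CCAAT is the box bound by NFY, a factor of many promoters, and CCATCTT is the YY1 motif, of which a looser form with any base before the last 2 letters was searched as well. ATGCAAA is part of the octamer bound by OCT4 with other factors. The other motifs reported here were the E-box CACGTG, and TGCGCA as part of the NRF1 motif. CCATCTT was in 690 masked distal regions (27.2%, 25.5 to 29%), against 5.48% of other distal regions, 6.17% near a TSS and 9.68% of all masked distal windows of that length. The looser form, which includes it, was in 35.9%, against 23.9% of masked windows. A match of letters is a description and does not show that a factor binds.

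Words 1 and 2 differed in these motifs. CCAAT was in 413 of the 419 regions of word 1 (98.6%) and CCATCTT in 1 (0.239%). In word 2 regions CCATCTT was in 335 of 355 (94.4%) and CCAAT in 22 (6.20%). CCAAT was also in 95.1% to 100% of the regions of words 4, 5, 6 and 9 (words 5 and 6 hold these letters themselves, which fixes their shares), and was in 4.13% of word 3 regions and in none of the regions of words 7, 8 and 10. CCATCTT was in 61.9% of word 3 regions, 66.7% of word 10 regions and all 37 of word 8, and in none of the regions of words 5, 6 and 9. Of the 1225 regions without a word, 34.1% held CCAAT and 12.4% CCATCTT. Copies of a repeat share their letters by descent, so regions of a group are not independent in this.

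Over all masked distal regions, CCAAT was in 42.2% of masked distal regions, against 47.7% of masked windows and 31.2% of other distal regions. The E-box (3.71%) and TGCGCA (2.21%) were less common than in other distal regions (5.42% and 4.78%), and more common than in masked windows (2.44% and 1.15%). ATGCAAA was in 1.66%, against 6.10% of other distal regions and 9.01% of masked windows. Regions with CCATCTT were in both replicates in 29.7% of 690 cases and those without in 22.9% of 1845, a difference of 6.84 points (3.00 to 10.8). Of the 690, 335 were of word 2, whose regions were in both in 39.7% of cases. Word 8, with CCATCTT in all its regions, stood at 18.9%. Words 5, 6 and 9, with CCATCTT in none, stood at 62.3%, 57.9% and 18.8%. The motif was not tested apart from the word groups.

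**Figure D5:**
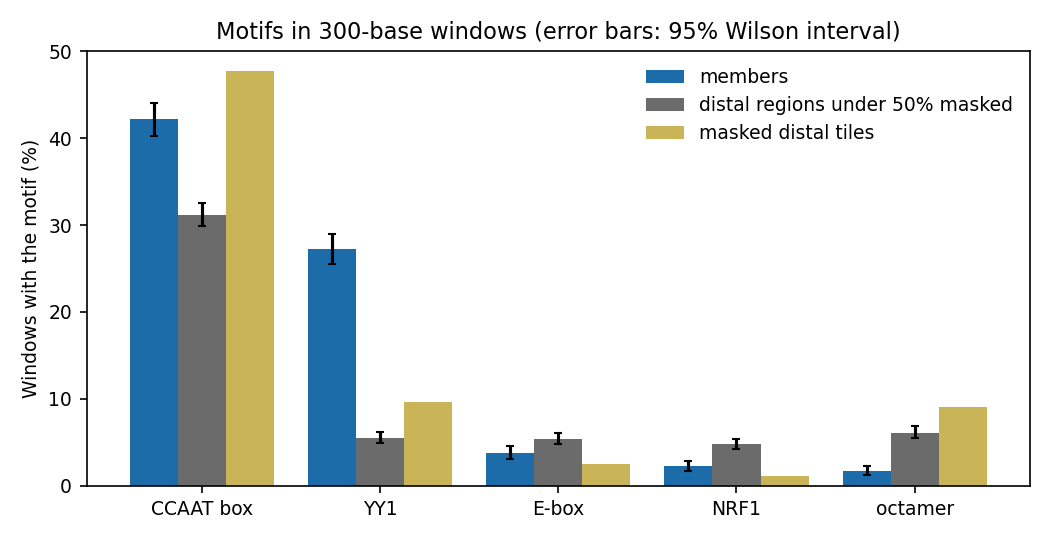
Share of 300-base windows that hold each motif, in percent on the vertical axis, for masked distal regions ("members"), other distal regions and all masked distal windows of the assembly ("tiles"), with 95% Wilson intervals for the regions. The YY1 motif CCATCTT, at 27.2%, is more common in masked distal regions than in either comparison, and the octamer part, at 1.66%, less.

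Masked distal regions lay in gene bodies about as often as masked sequence in general. A gene body held 783 of them (30.9%, 29.1 to 32.7%), against 30% of masked distal windows and 55.1% of other distal regions, and 15 were in exons. These were in 649 genes, of which 547 held 1 region. Pcdh15, a cadherin of hair cells, and Sntg1, a syntrophin, held 5 each, and Nrg1, the growth factor neuregulin 1, held 4. The median distance to a TSS was 24700 bp, against 11827 bp for other distal regions. Where a region in a gene had a long frame with FADD, the frame was on the strand of the gene in 69 of 186 cases (37.1%, 30.5 to 44.2%), and over all such frames in genes in 496 of 1277 (38.8%, 36.2 to 41.5%), with overlapping intervals.

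On the X chromosome, masked distal regions were as dense as on the autosomes, unlike the other classes. There were 169 on the X, or 0.988 per Mb, and 2345 on autosomes, or 0.952 per Mb, a ratio of 1.04 (0.888 to 1.21). The ratio was 0.261 (0.210 to 0.324) for other distal regions and 0.396 (0.347 to 0.452) near a TSS. Within the masked distal regions, those of words 1 to 4 had a ratio of 1.51 (1.23 to 1.85) and those without a word 0.643 (0.487 to 0.848). The X has more masked sequence, 43.1% of its distal windows against 27.3% on autosomes, and per 100000 masked windows it had 77.7 regions against 121. On the Y, where 97.2% of distal windows were masked, there were 21 regions, or 7.94 per 100000 masked windows. The number of X chromosomes in these cells was not tested. The distance to the nearest assembly gap did not set the regions apart, with a median of 6934183 bp (6492074 to 7484573) against 7293688 bp (7005223 to 7596368) for other distal regions, and 0 overlapped a RefSeq tRNA, rRNA, snRNA or miRNA, which 10 other distal regions did for tRNA. An enhancer annotated in RefSeq was overlapped by 0 masked distal regions and by 44 other distal regions.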

How the data were processed

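CUT&Tag peaks of SRCAP-YPet in 2 SYAT samples were analysed. The authors deposited for each sample a list of MACS2 peaks with a score (−log10 of the q-value, multiplied by 10, for q-values up to 0.05) and no counts. The tools named in the submitters' processing notes are STAR, Picard and MACS2. The lists' sequence build is mm10. GRCm38 from NCBI was used with its own lower-case mask (36.4% of bases, masking tool not given in the sources used here, so other masks may differ) and GENCODE mouse release 21. No annotation of repeat classes was used here.

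Scripts for merging, copy counts, words and frames were tested on simulated data. Peaks were shared where merged regions held peaks of both replicates (overlap of 1 bp). Intervals are 95% Wilson or Newcombe intervals, and medians carry binomial order-statistic intervals. No test across samples was possible with 1 group. Regions, words and lists were chosen with earlier results of these data known, and words, frames and unit shifts after the sequences had been seen. Named regions are the 10 shared regions with the best worst rank, the 3 highest of each replicate alone, the highest of each of the 5 largest families, and the nearest to each threshold. Alignments were made with blastn 2.17.0, and the rest with Python 3.11.15, with numba 0.67.0 and scipy 1.17.1. Results on 1 repeat sequence are not reported here.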

Additional observations from a re-analysis of the deposited data

How the results depend on the processing

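No paired analysis was possible because both samples belong to 1 group. Over 59 recomputed values, 26 stayed within 1.5 times the count or inside the interval of the reported value. The number of regions was 1520 with at least 90% masked, 742 with a score of at least 50 and 1600 with lists of equal length. The share in both replicates was 29% with at least 75% masked, 30.6% with 90%, 28.6% with lists of equal length, 20.1% where each peak had to cover 50% of the other, and 12.0% over the 808 regions with at least 50% of 31-mers once, an alternative added after the data had been seen. Distal regions under 50% masked stood at 8.74%. The median score of replicate 1 was 35 with at least 90% masked and 71 with a score of at least 50, and that of replicate 2 was 38 with 75%, 41 with 90% and 73 with that score. Masked regions were 27% of distal regions with 75% masked, 21.1% with 90%, 41.8% over 10 kb from a TSS, 32.8% with protein-coding TSSs and 57.1% with a score of at least 50. The median share of 31-mers that occur once was 13.8% with 75% masked, 9.33% with 90%, 20.8% over 10 kb, 13.9% with that score and 16.8% for 24-mers. Short runs were in 1.89% with that score and in 1.74% at 40 bases, and rho was 0.276 among regions with at least 50% of 31-mers once. Leaving out each replicate in turn, the number ranged from 1076 to 2081, the share of distal regions from 36.7% to 41.7%, the median width from 325 to 362 bp, the unique share from 17.7% to 25.2%, the median GC content from 59.3% to 61.0% and the median CpG number from 13 to 14; the gene body share was 30.1% to 30.6% and the share with short runs 3.51% to 3.62%. The causes were not tested. Depth is unknown, so absence of a peak in 1 replicate could not be told apart from too few reads.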
